A study of Mus musculus with 2 samples.

Results

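The interleukin-10 (IL-10) and IL-12 family was followed here through 10 genes: the cytokine genes *Il10*, *Il12a*, *Il12b*, *Il23a*, *Il27* and *Ebi3*, and the receptor genes *Il10ra*, *Il10rb*, *Il12rb1* and *Il12rb2*. They were picked by name from the 32589 genes of the deposited tables, and all 10 were found. Single-cell RNA-Seq was used to ask how the tumor microenvironment (TME) of cholangiocarcinoma (CCA, bile duct cancer) differs when immune checkpoint blockade is added to YAP/TAZ depletion. CCA had been induced in mice by hydrodynamic tail vein injection of activated Notch (NICD) and myristoylated AKT. All animals were shYT, which means that doxycycline given from day 25 switched on, through a ubiquitously expressed transactivator, shRNAs against the YAP gene *Yap1* and the TAZ gene *Wwtr1*, each gene with its own. The control group was then given PBS and the other group antibody to PD-1 (clone RMP1-14, days 26, 29 and 32), and cells of dissociated tumor-bearing livers were analyzed on day 33 after lysis of red cells and removal of debris and dead cells. The labels do not name the shRNA line or describe the animals. The study's text gives several per group for this experiment and mice of both sexes in the study, so each library may pool animals, but which cells came from which animal is not given in the sources used here, and each group was 1 library. Replicate error is therefore unknown for every difference below, and no p-value is given. Depletion itself is not compared, since both groups carried it.

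IL-10 signals through a receptor of IL-10RA and IL-10RB to STAT3 and restrains macrophages and dendritic cells (DCs). IL-12 is a pair of the *Il12a* and *Il12b* products, and IL-23 a pair of the *Il23a* and *Il12b* products. IL-27 pairs the *Il27* and *Ebi3* products, and IL-35 the *Il12a* and *Ebi3* products. IL-12 acts on T and NK cells through IL-12RB1 and IL-12RB2, STAT4 and interferon-γ. In the liver, Kupffer cells, the resident macrophages, are a known source of IL-10, whereas IL-12 is made mainly by activated DCs and macrophages.

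Sequence around the start of transcription was at hand from RefSeq for 4 of the 10 genes: *Il12a*, *Il12b*, *Il12rb2* and *Ebi3*. *Il12b* and *Ebi3* are shown because the partner chain *Il12b* was higher in macrophages with anti–PD-1 while *Ebi3* was level there, as described with their values. Each run reads 5′ to 3′ on the gene's strand over 300 bases, with 250 before the RefSeq start and 50 after it, at chr11:44399813-44400112 (forward strand) for *Il12b* and at chr17:55952373-55952672 (forward strand) for *Ebi3*, GRCm38.p6. Capitals mark matches to 6 motifs searched on both strands: AP-1 (TGANTCA), κB (GGG and CC with 5 bases between), PU.1 (GAGGAA), GAS (TTC and GAA with 3 bases between), ISRE (GAAA and GAAA with 2 bases between) and the TATA box (TATAAA).
Il12b: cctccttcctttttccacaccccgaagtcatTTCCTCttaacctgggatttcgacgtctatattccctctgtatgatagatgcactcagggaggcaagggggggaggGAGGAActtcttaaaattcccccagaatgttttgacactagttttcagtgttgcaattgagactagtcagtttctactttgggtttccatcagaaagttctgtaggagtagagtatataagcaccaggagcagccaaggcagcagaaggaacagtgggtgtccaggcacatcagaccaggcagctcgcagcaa
Ebi3: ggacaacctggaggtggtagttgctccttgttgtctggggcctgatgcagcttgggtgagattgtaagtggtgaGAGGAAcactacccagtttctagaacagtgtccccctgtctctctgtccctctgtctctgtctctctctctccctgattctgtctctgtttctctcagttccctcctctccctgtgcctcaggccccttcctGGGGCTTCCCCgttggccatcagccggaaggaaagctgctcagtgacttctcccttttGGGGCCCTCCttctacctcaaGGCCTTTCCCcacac
The *Il12b* window held 2 PU.1 matches, which begin 219 bases (reverse strand) and 143 bases before the start. The *Ebi3* window held 1 PU.1 match and 4 κB matches, of which 2 overlap in the first capital run after it and 1 lies on the reverse strand at the end. Among 32851 such windows of 27025 genes, 28.3% held a PU.1 match, 50.8% a κB match, 7.81% an AP-1 match, 8.30% a GAS match, 3.44% an ISRE match and 13.6% a TATA box match, so PU.1 and κB matches are common, and all describe the letters only.

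The PBS library held 19397 barcodes and 121713441 UMIs (unique molecular identifiers, 1 per counted transcript), and the anti–PD-1 library 19451 barcodes and 100807037 UMIs. Cells were kept when 500 to 5000 genes were detected and mitochondrial genes gave no more than 10% of UMIs, 15531 (80.1%) and 16360 (84.1%), with a median of 3159 and 2990 UMIs. Each kept cell was put into 1 of 16 classes when at least 3 of the 10 markers of that class were detected, with a lead of 2 over any other class, which placed 83.3% and 78.1% of cells. Class names below mean cells that pass such a gate. Levels are UMIs of a gene per 1000000 UMIs of all cells of the class (CPM), with 95% exact Poisson intervals. Ratios are anti–PD-1 over PBS of CPM + 5 on the log2 scale, which shrinks the ratios of low genes. Folds given as a value are ratios of CPM. Genes called at least 2-fold higher or lower, past 2-fold or within 2-fold were judged by the log2 ratio of CPM + 5, at 1 and −1. All intervals cover counting error only.

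The libraries stood apart in their sex-linked transcripts. UMIs of *Xist*, transcribed from the inactive X chromosome, numbered 18452 with PBS and 11 with anti–PD-1, and those of 4 genes of the Y chromosome (*Uty*, *Kdm5d*, *Ddx3y* and *Eif2s3y*) 3113 and 15323. Cells with at least 1 Y-linked UMI but without *Xist*, called Y-positive here, are given beside some of the results and among the alternatives at the end. The libraries shared 219 barcodes (1.13% in each), 145 of them kept in both. A list of 14 dissociation stress genes (early response and heat shock genes) was also higher with anti–PD-1. Its summed level went from 5643 to 14771 CPM in monocytes/macrophages, from 3902 to 7569 CPM in T cells and from 2999 to 8800 CPM in tumor cells and biliary epithelial cells (BECs). All 14 genes were above a log2 ratio of 0 in these classes, but not in all others. In neutrophils 8 of 14 were above 0 and 2 were at least 2-fold lower, with a summed level of 12270 and 14453 CPM. In DCs 10 of 14 were above 0. The part of this list in the results was not tested beyond the values by stress share given for *Il10*, *Il12b* and *Il27*. The largest cluster of monocytes/macrophages held 932 PBS and 1417 anti–PD-1 cells, while others were mostly of 1 library, such as one with 2031 and 100 and another with 27 and 995.

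*Il10* (ENSMUSG00000016529, mm10 chromosome 1, 131019845 to 131024974, forward strand), the anti-inflammatory cytokine of the family, had the largest log2 ratio of the members over all kept cells, 2.91 (2.83 to 2.98). It had 878 UMIs in 345 cells with PBS and 8991 UMIs in 1809 cells with anti–PD-1, or 11.1 CPM (10.4 to 11.9) and 116 CPM (113 to 118). Kupffer cells held 49.8% of these UMIs with PBS and 74.95% with anti–PD-1, and T cells 14.9% and 8.19%. In monocytes/macrophages *Il10* went from 646 UMIs to 7224 UMIs, from 16.4 CPM (15.2 to 17.8) to 238 CPM (232 to 243). Its log2 ratio was 3.50 (3.41 to 3.59), a 14.4-fold higher level (13.3 to 15.7).

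The makeup of the monocyte/macrophage gate differed between the libraries, so Kupffer cells and other macrophages were read apart. Kupffer cells, gated with *Clec4f*, *Timd4*, *Cd5l*, *C6*, *Vsig4* and *Marco*, were 28.0% of the gate with PBS (1283 of 4584 cells) and 71.1% with anti–PD-1 (2430 of 3416 cells). Of these gate markers, *Clec4f*, which defines Kupffer cells, had a UMI in 86.4% and 88.0% of them. *Vsig4* had one in 85.0% and 75.4%, and *C6* in 62.4% and 57.4%. The shares were 51.9% and 60.3% for *Marco*, 55.3% and 58.5% for *Timd4*, and 89.5% and 89.9% for *Cd5l*. Within Kupffer cells *Il10* went from 35.9 CPM (32.6 to 39.4) to 279 CPM (272 to 285), 7.76-fold higher (7.04 to 8.57), with a log2 ratio of 2.79. Within other macrophages it went from 7.68 CPM (6.67 to 8.80) to 78.5 CPM (71.6 to 85.8), 10.2-fold higher (8.67 to 12.1), with a log2 ratio of 2.72. *Il10* was thus higher in both groups of cells, by less than in the gate as a whole. The cells within these groups also differed between the libraries. Of other macrophages, 81.3% with PBS and 49.8% with anti–PD-1 had a *Trem2* UMI, and 50.9% and 27.4% an *Mrc1* UMI. Their median depths were 7585 and 5636 UMIs. The part of this makeup in the ratios was not tested.

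More macrophages carried *Il10* and those that did carried more. Of Kupffer cells, 9.51% with PBS and 35.5% with anti–PD-1 had an *Il10* UMI, at median depths of 9116 and 9591 UMIs. After every cell had been thinned to 1000 UMIs, which left 2327 of the 2430 anti–PD-1 Kupffer cells, these shares were 2.78% and 15.3%. In other macrophages the thinned shares were 0.50% and 4.95%. Tumor cells and BECs, which should lack *Il10*, had thinned shares of 0.0973% and 1.18% (unthinned 0.769% and 3.11%, at median depths of 2399.5 and 1797 UMIs), so the background moved in the same direction on 9 and 22 UMIs. Cells with 10 or more *Il10* UMIs were 0.779% of PBS Kupffer cells (10 cells) and 10.3% of anti–PD-1 Kupffer cells (251 cells), as the plot of *Il10* UMIs per cell shows. The 5% of Kupffer cells with most *Il10* held 86.7% of its UMIs with PBS and 50.02% with anti–PD-1.

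**Figure D1:**
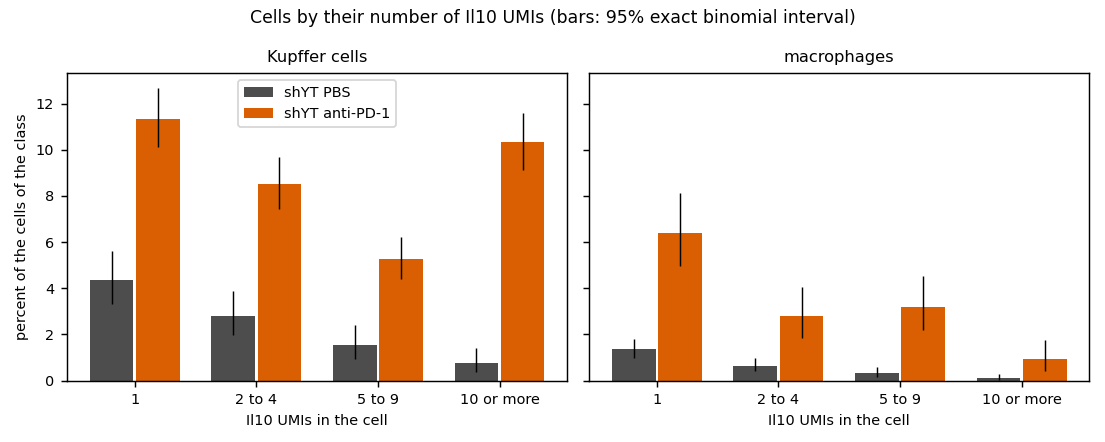
Percent of the Kupffer cells (left) and other macrophages (right) of each library that held 1, 2 to 4, 5 to 9, or 10 or more *Il10* UMIs, with 95% exact binomial intervals as bars (1 library per group). Kupffer cells with 10 or more UMIs were 0.779% with PBS and 10.3% with anti–PD-1, and in other macrophages 0.0917% and 0.931%.

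*Il10* was lowest in the cells with the smallest share of dissociation stress UMIs, and the libraries also differed within bins of that share. The median share was 0.530% of a cell's UMIs in PBS Kupffer cells and 1.40% in anti–PD-1 Kupffer cells, and 0.435% and 1.19% in other macrophages. Kupffer cells of both libraries together were split into 4 bins of this share with equal numbers of cells. The bins ended at 0.547%, 1.02%, 1.70% and 7.87%. The lowest held 662 PBS and 267 anti–PD-1 cells, and the highest 28 and 900. Shares inside a bin may differ between the libraries, which was not tested. In the lowest bin *Il10* was at 7.64 CPM (5.62 to 10.2) with PBS and at 57.6 CPM (48.0 to 68.4) with anti–PD-1. The levels were 50.7 and 131 CPM in the next bin, 94.0 and 219 CPM in the third, and 57.8 CPM (28.9 to 103, in 28 cells) and 473 CPM (459 to 487) in the highest. The fold ran from 2.33 (1.99 to 2.73) in the third bin to 8.18 (4.57 to 16.4) in the highest, so that *Il10* was higher with anti–PD-1 in every bin and by 2.33-fold to 2.58-fold in both middle bins, against 7.76-fold overall. In other macrophages the fold ran from 3.21 (2.24 to 4.57) in the third bin to 13.2 (2.39 to 48.8) in the lowest, which held 3 UMIs with anti–PD-1.

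**Figure D2:**
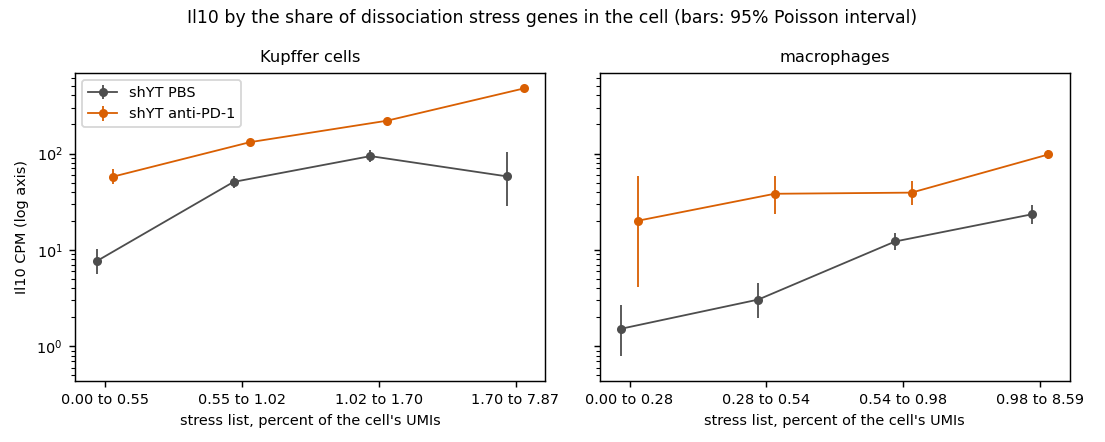
*Il10* CPM (log axis) in Kupffer cells (left) and other macrophages (right) of each library, by bins of the share of a cell's UMIs that came from the 14 dissociation stress genes, with 95% Poisson intervals as bars. The anti–PD-1 points lie above the PBS points in every bin, and in both libraries *Il10* was lowest in the bin with the least stress UMIs.

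Y-positive cells gave a like difference in macrophages. In Y-positive Kupffer cells *Il10* was at 25.8 CPM (19.0 to 34.3) in 180 PBS cells and at 290.4 CPM (283 to 298) in 1561 anti–PD-1 cells. In PBS Kupffer cells with *Xist* and no Y-linked UMI it was at 44.2 CPM (39.4 to 49.3), below every group of anti–PD-1 Kupffer cells split this way. In other Y-positive macrophages it was at 8.71 CPM (5.69 to 12.8) and 86.5 CPM (77.5 to 96.3).

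Outside the macrophages, T cells were the class with most *Il10* UMIs in both libraries. It went from 131 UMIs to 736 UMIs, from 12.9 CPM (10.8 to 15.3) to 51.4 CPM (47.7 to 55.2), with a log2 ratio of 1.66 (1.45 to 1.86). Regulatory T cells, gated by a *Foxp3* UMI, had the highest level among T cells in both libraries, 38.7 CPM (28.3 to 51.8) and 136 CPM (118 to 156), with a log2 ratio of 1.69 (1.26 to 2.13). Without the top cell of each library, which held 14 and 22 UMIs, these levels were 26.7 and 122 CPM. CD4 T cells without *Foxp3* went from 12.5 to 54.1 CPM and CD8 T cells from 14.3 to 34.9 CPM, with log2 ratios of 1.76 (1.33 to 2.18) and 1.05 (0.68 to 1.42). T cells of no subset (1209 and 879 cells) had none of the subset markers, or both *Cd4* and CD8 markers without *Foxp3*. They went from 12 to 127 UMIs, from 3.58 CPM (1.85 to 6.25) to 42.2 CPM (35.2 to 50.3). Theirs was the highest log2 ratio of the T cell groups with at least 20 UMIs, 2.46 (2.01 to 2.86). The thinned share of cells with *Il10* went from 2.79% to 8.12% in regulatory T cells and from 1.28% to 2.13% in CD8 T cells, the latter beside 1.18% in tumor cells and BECs. In Y-positive T cells the levels were 1.88 CPM (0.228 to 6.79, on 2 UMIs) and 57.8 CPM (540 UMIs). PBS T cells with *Xist* and no Y-linked UMI had *Il10* at 17.4 CPM (13.9 to 21.5, on 87 UMIs), so its level also differed within the PBS library.

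The order of the classes by *Il10* differed between the libraries. In the PBS library regulatory T cells (38.7 CPM) and Kupffer cells (35.9 CPM) came first with overlapping intervals. Plasma cells (22.0 CPM), CD8 T cells (14.3 CPM) and CD4 T cells (12.5 CPM) followed, and their intervals overlapped each other. The interval of plasma cells (15.2 to 30.9) also overlapped that of regulatory T cells (28.3 to 51.8), but not that of Kupffer cells (32.6 to 39.4). In the anti–PD-1 library Kupffer cells (279 CPM) lay above regulatory T cells (136 CPM) and these above other macrophages (78.5 CPM), with no overlap between these 3. Plasma cells (60.1 CPM, 46.6 to 76.3) and CD4 T cells (54.1 CPM, 46.3 to 62.9) overlapped each other, and the interval of plasma cells also overlapped that of other macrophages (71.6 to 85.8).

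In neutrophils *Il10* had 0 UMIs with PBS (0 to 1.75 CPM by the exact Poisson interval, on 2110532 UMIs in all) and 123 UMIs in 100 cells with anti–PD-1 (16.8 CPM), at least 11.8-fold higher against a floor of 3 counts per library, while the exact interval of the ratio began at 9.45-fold. In NK cells it had 0 and 23 UMIs (13.7 CPM), at least 4.51-fold higher against that floor, with an interval that began at 3.38-fold. The thinned shares with anti–PD-1, 1.32% in neutrophils and 0.905% in NK cells, lay within the interval of the 1.18% of tumor cells and BECs (0.435 to 2.55%, 6 of 508 cells) and were not resolved from the level there at this depth. In B cells *Il10* went from 4 to 152 UMIs, but 80 of the 152 came from 1 cell, and without it the level was 15.1 CPM in place of 31.9 CPM. Plasma cells went from 22.0 CPM (15.2 to 30.9) to 60.1 CPM, with a log2 ratio of 1.27 (0.74 to 1.80). DCs held 4 and 19 UMIs.

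**Figure D3:**
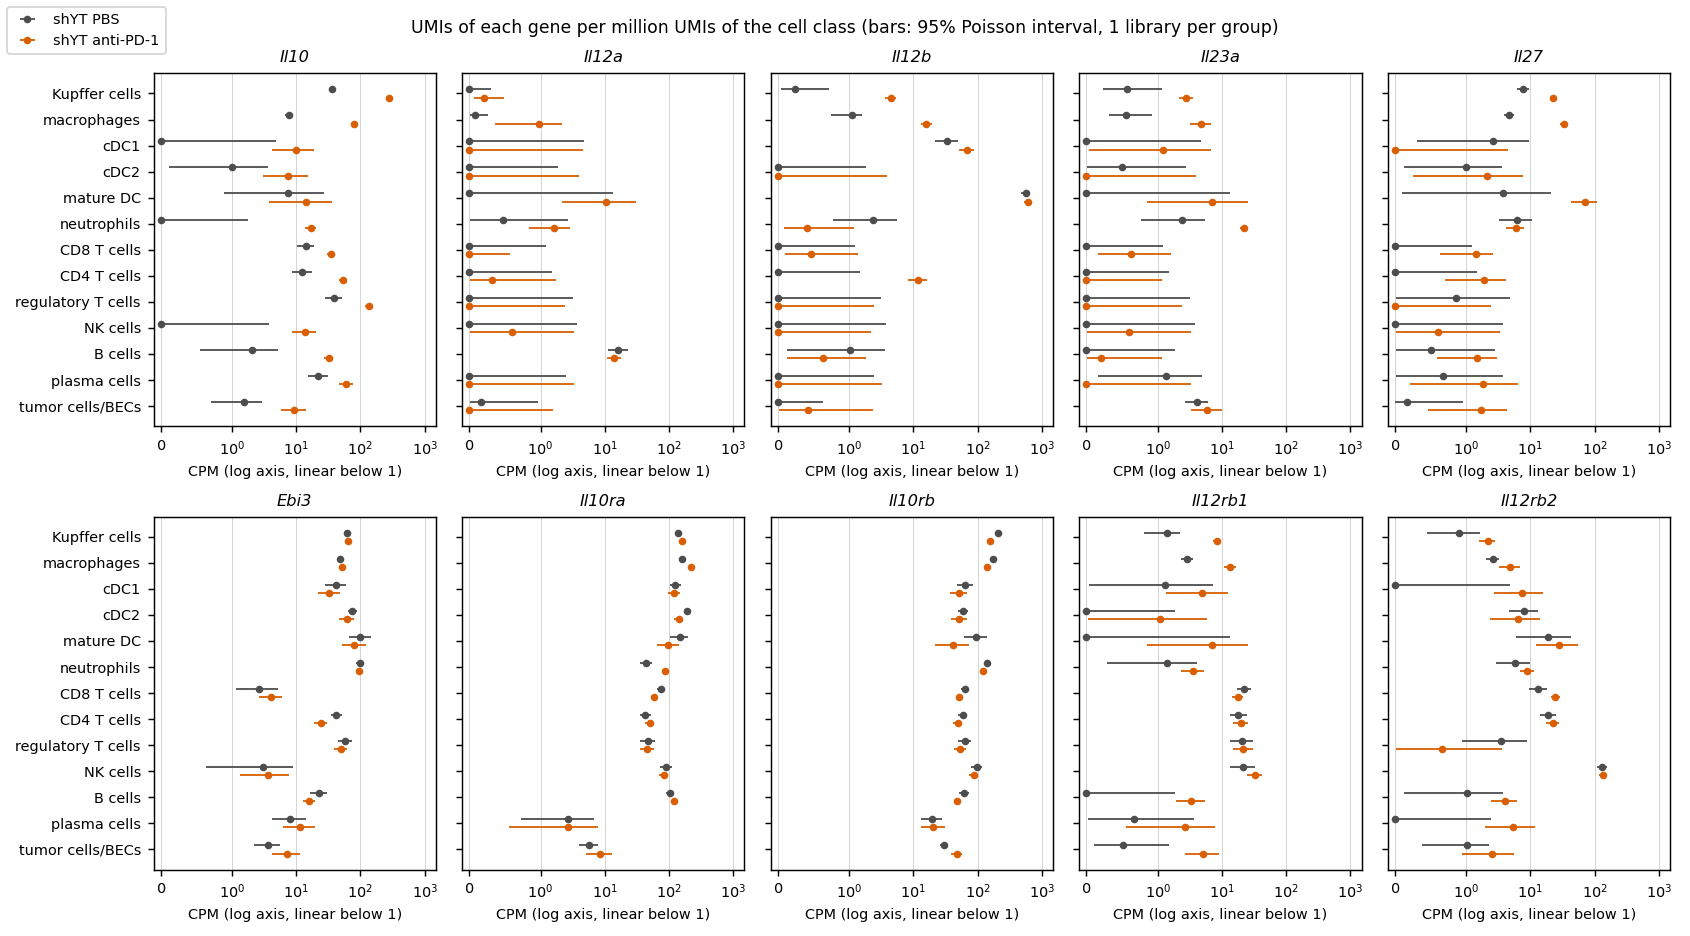
CPM of each of the 10 genes (log axis, linear below 1) in 13 cell classes of the PBS library (gray) and the anti–PD-1 library (orange), with 95% Poisson intervals as bars. *Il10* lay higher with anti–PD-1 in every class drawn, although the intervals overlapped in cDC1, cDC2 and mature DCs, while *Ebi3* had overlapping intervals in Kupffer cells, other macrophages and neutrophils.

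*Il12b* (ENSMUSG00000004296, mm10 chromosome 11, 44400063 to 44414033, forward strand), the chain shared by IL-12 and IL-23, was led by mature DCs in both libraries. Mature DCs, gated by genes such as *Fscn1*, *Ccr7* and *Ccl22*, held 153 UMIs in 16 of 61 cells with PBS and 176 UMIs in 18 of 43 cells with anti–PD-1. The level was 565 CPM (479 to 662) and 618 CPM (530 to 716), at a log2 ratio of 0.13 (−0.19 to 0.44). The interval takes UMIs as independent while these lay in few cells, so it does not exclude a 2-fold change. The cell with most *Il12b* gave 70 of the 153 UMIs and 45 of the 176, and without these cells the levels were 306 and 460 CPM. The thinned share of mature DCs with *Il12b* was 16.4% and 34.1%, and tumor cells and BECs had 0 and 1 UMI in all.

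In all DCs together *Il12b* had a log2 ratio of 0.89 (0.62 to 1.16), from 59.0 to 114 CPM on 179 and 232 UMIs. This value rested on how the class was drawn. It was 0.28 (0.03 to 0.52) when classes were taken from clusters, 0.47 (0.23 to 0.72) with a looser gate, and 0.27 (−0.26 to 0.83) in Y-positive cells. Mature DCs were 61 of 452 DCs with PBS and 43 of 217 with anti–PD-1. cDC1, the cross-presenting DCs, went from 33.9 to 68.4 CPM, where 20 of the 26 PBS UMIs came from 1 cell. Among cells in no class, *Il12b* had 60 UMIs with PBS, 39 of them in 1 cell, and 15 with anti–PD-1.

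Outside DCs, *Il12b* was higher in macrophages. Macrophages other than Kupffer cells went from 30 UMIs in 12 cells to 98 UMIs in 21 cells, from 1.11 CPM (0.751 to 1.59) to 16.0 CPM (12.95 to 19.4), with a log2 ratio of 1.78 (1.53 to 2.02). Kupffer cells went from 3 UMIs to 107 UMIs in 35 cells, a 17.9-fold ratio (5.98 to 88.4) and a log2 ratio of 0.84 (0.67 to 0.99). The thinned shares with anti–PD-1 were low, 0.691% and 0.344%. By bins of the stress share, from lowest to highest, other macrophages held 6, 9, 14 and 1 UMIs with PBS and 0, 0, 25 and 73 with anti–PD-1, where both lower bins had 45 and 105 cells. *Il12b* was therefore higher only in the upper bins of these macrophages, at 19.3 against 1.84 CPM and 17.5 against 0.304 CPM, and a difference in the lower bins was not detectable at this depth. Kupffer cells held 1, 1, 1 and 0 UMIs with PBS and 6, 18, 40 and 43 with anti–PD-1 in their bins. In T cells *Il12b* had 0 UMIs and 40 UMIs, of which 34 came from 1 CD4 T cell.

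*Il12a* (ENSMUSG00000027776, mm10 chromosome 3, 68690644 to 68698547, forward strand), the second chain of IL-12, was sparse, with 49 and 169 UMIs in all. B cells were the class with most of it, 32 UMIs with PBS and 67 with anti–PD-1. Their levels were 16.3 CPM (11.1 to 23.0) and 14.1 CPM (10.9 to 17.8), at a log2 ratio of −0.16 (−0.63 to 0.32), and 3.18% and 3.02% of B cells had a UMI. In DCs *Il12a* had 0 and 3 UMIs, all 3 in 1 mature DC, which also held *Il12b*. No other cell of either library had UMIs of both chains of IL-12. In cells of no class *Il12a* had 9 and 65 UMIs, 19 of the 65 in 1 cell.

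*Il23a* (ENSMUSG00000025383, mm10 chromosome 10, 128296139 to 128298752, reverse strand), the chain that makes IL-23 with *Il12b*, had 61 and 346 UMIs in all. In the PBS library 39.3% of them were in tumor cells and BECs, and with anti–PD-1 47.1% were in neutrophils. Neutrophils went from 5 UMIs in 4 cells to 163 UMIs in 63 cells, from 2.37 CPM (0.769 to 5.53) to 22.2 CPM (18.9 to 25.9), with a log2 ratio of 1.88 (1.34 to 2.28). Their thinned share with *Il23a* was 0.277% and 1.32%, beside 0.292% and 0% in tumor cells and BECs. In tumor cells and BECs the level was 4.13 CPM (2.65 to 6.15) and 5.94 CPM (3.25 to 9.97), on 24 and 14 UMIs. Monocytes/macrophages went from 22 to 96 UMIs, and none of the 63 neutrophils with *Il23a* held an *Il12b* UMI. Different clusters held most neutrophils of each library: one with 113 PBS and 2733 anti–PD-1 cells, another with 1109 and 39.

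*Il27* (ENSMUSG00000044701, mm10 chromosome 7, 126589010 to 126594941, reverse strand) was higher in Kupffer cells and in other macrophages. Kupffer cells went from 94 to 549 UMIs, from 7.73 CPM (6.24 to 9.45) to 22.7 CPM (20.8 to 24.7), with a log2 ratio of 1.12 (0.91 to 1.33). Other macrophages went from 4.60 CPM (3.83 to 5.48) to 33.4 CPM (29.0 to 38.3), with a log2 ratio of 2.00 (1.78 to 2.21). The thinned shares with *Il27* went from 0.954% to 2.41% and from 0.469% to 3.57%, beside 0% in tumor cells and BECs of either library. In the bins of stress share, *Il27* in Kupffer cells was at 6.18, 7.68, 10.4 and 31.5 CPM with PBS, the last on 6 UMIs, and at 20.2, 25.8, 24.7 and 19.8 CPM with anti–PD-1. *Il27* was therefore higher with anti–PD-1 in the 3 bins of Kupffer cells with least stress, whereas the fold in the highest was 0.628 (0.283 to 1.73). In other macrophages the fold ran the other way, at 1.55 (0.0381 to 9.24, on 1 UMI with anti–PD-1), 3.91 (1.82 to 7.70), 6.55 (4.01 to 10.7) and 10.2 (5.66 to 20.1) from the lowest to the highest bin. In neutrophils it was at 6.16 and 5.86 CPM, at a log2 ratio of −0.04 (−0.57 to 0.46). In mature DCs it had 1 and 20 UMIs, 13 of the 20 in 1 cell. *Il27* overlaps *Apobr* on the opposite strand over 103 bases, and without stated strand the reads of that stretch cannot be told apart. *Apobr* went from 58.8 to 45.5 CPM in Kupffer cells.

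*Ebi3* (ENSMUSG00000003206, mm10 chromosome 17, 55952640 to 55957022, forward strand), the partner of *Il27*, did not share that difference. It was at 61.3 CPM (57.0 to 65.9) and 63.3 CPM (60.2 to 66.6) in Kupffer cells, at a log2 ratio of 0.04 (−0.07 to 0.16), and at 98.1 and 93.5 CPM in neutrophils, −0.07 (−0.28 to 0.15). In Y-positive neutrophils it was at 29.4 CPM (9.56 to 68.7, on 5 UMIs) with PBS and 83.9 CPM (74.4 to 94.4) with anti–PD-1. Neutrophils with neither *Xist* nor Y-linked UMIs had 104 and 101 CPM. In other macrophages the log2 ratio was 0.12 (−0.05 to 0.28). In DCs it was at −0.34 (−0.66 to −0.03) beside a median of −0.14 over all genes. The interval included 0 in several alternatives. Among them were median-of-ratios scaling (−0.25), classes from clusters (−0.18), Y-positive cells (−0.52), thinning (−0.06) and no upper limit on detected genes (−0.31). It was lower in CD4 T cells, where it went from 42.3 CPM (34.6 to 51.2) to 24.4 CPM (19.2 to 30.5), at a log2 ratio of −0.69 (−1.06 to −0.31) beside a median of −0.14 over all genes. In Y-positive T cells of all subsets, however, *Ebi3* was at 15.0 CPM (8.60 to 24.4) with PBS and 16.0 CPM (13.5 to 18.7) with anti–PD-1. PBS T cells with *Xist* and no Y-linked UMI had 30.8 CPM. CD4 T cells were not split this way. Regulatory T cells had 58.5 and 49.97 CPM. Among Kupffer cells with *Il27*, 47.0% with PBS and 46.2% with anti–PD-1 also had *Ebi3*, against 37.8% and 37.1% of the rest. Cells with *Il27* were deeper, with a median of 11655 against 9009.5 UMIs with PBS. An antisense gene, *Gm16712*, overlaps *Ebi3* and makes its counts uncertain in the same way.

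**Figure D4:**
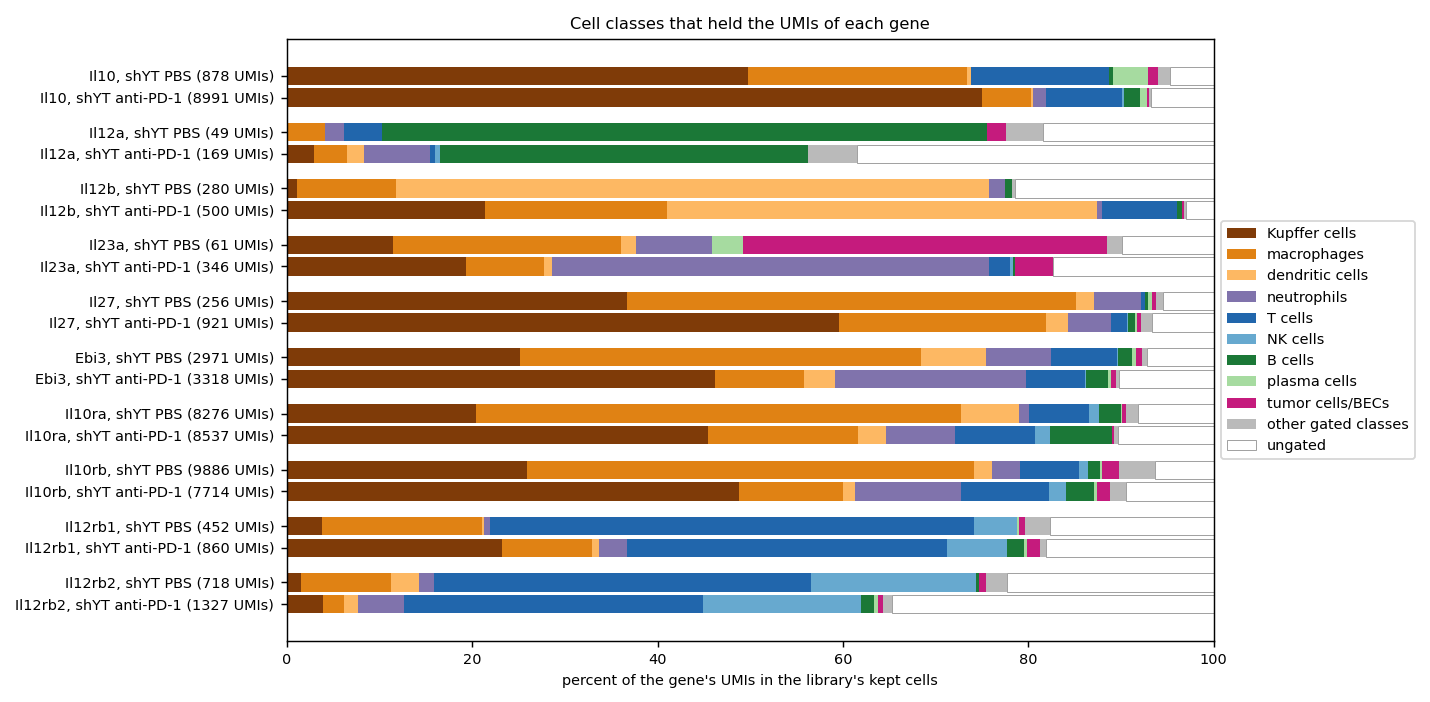
Percent of each gene's UMIs that each cell class held, with 1 bar per gene and library and the number of UMIs beside its name. Kupffer cells held 49.8% of *Il10* UMIs with PBS and 74.95% with anti–PD-1, and neutrophils 8.20% and 47.1% of *Il23a* UMIs.

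Of the 4 receptor genes, only *Il12rb1* was at least 2-fold higher, by the log2 ratio of CPM + 5, in any of the classes counted against all genes below. *Il10ra* (ENSMUSG00000032089, mm10 chromosome 9, 45253837 to 45269149, reverse strand), the ligand-binding chain of the IL-10 receptor, was at 139 CPM (132 to 146) and 160.4 CPM (155 to 166) in Kupffer cells, at a log2 ratio of 0.20 (0.12 to 0.28). In other macrophages it went from 161 to 225 CPM, 0.47 (0.38 to 0.56). In neutrophils it went from 93 UMIs at 44.1 CPM (35.6 to 54.0) to 635 UMIs at 86.5 CPM (79.9 to 93.5), at a log2 ratio of 0.90 (0.61 to 1.19) beside a median of −0.25 over all genes. The thinned share of neutrophils with *Il10ra* went from 4.90% to 8.25%, beside 0.973% and 1.38% in tumor cells and BECs. *Il10ra* was lower in DCs at −0.40 (−0.61 to −0.19), in CD8 T cells at −0.35 (−0.57 to −0.13) and in plasmacytoid DCs at −1.37 (−2.40 to −0.40), the last on 35 and 9 UMIs. In NK cells it was at 90.5 and 83.1 CPM, −0.12 (−0.49 to 0.26).

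*Il10rb* (ENSMUSG00000022969, mm10 chromosome 16, 91406164 to 91425834, forward strand), the signaling chain that IL-10 shares with IL-22 and the type III interferons, was lower in macrophages. It went from 210.3 CPM (202 to 219) to 156 CPM (151 to 161) in Kupffer cells and from 177 to 140.3 CPM in other macrophages, with log2 ratios of −0.42 (−0.49 to −0.35) and −0.32 (−0.43 to −0.22) beside medians of −0.10 and −0.12 over all genes. In T cells it was at −0.27 (−0.41 to −0.12) and in neutrophils at −0.21 (−0.39 to −0.02), close to the −0.25 of all genes there. In mature DCs it went from 96.0 to 42.1 CPM, at −1.10 (−2.07 to −0.16), on 26 and 12 UMIs. It was higher in tumor cells and BECs, from 30.3 CPM (26.0 to 35.1) to 47.5 CPM (39.1 to 57.2), at a log2 ratio of 0.57 (0.26 to 0.88). Among cells with *Il10*, 69.7% of PBS and 71.7% of anti–PD-1 Kupffer cells also had *Il10ra*, against 64.5% and 61.2% of the rest, which were shallower (median 8922 against 11078 UMIs with PBS). *Il10rb* overlaps *Gm21970* on the same strand, and *Il10ra* overlaps 2 small noncoding genes, so their counts are uncertain there.

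*Il12rb2* (ENSMUSG00000018341, mm10 chromosome 6, 67291318 to 67376188, reverse strand), the signaling chain of the IL-12 receptor, was highest in NK cells, at 130.1 CPM (109 to 155) and 135 CPM (118 to 154), with the interval of gamma-delta T cells overlapping in the anti–PD-1 group. Its log2 ratio there was 0.05 (−0.25 to 0.36), −0.02 after thinning, 0.25 (−0.01 to 0.52) with a looser gate, 0.29 (0.08 to 0.51) with classes from clusters and 0.59 (−0.22 to 1.50) in Y-positive cells, on 12 and 124 UMIs, and 12.2% and 12.9% of thinned NK cells had a UMI. In T cells together it was at 28.7 and 29.9 CPM, 0.05 (−0.13 to 0.24), and at −0.16 (−0.60 to 0.30) in Y-positive cells. In CD8 T cells it went from 40 UMIs at 13.3 CPM (9.51 to 18.1) to 158 UMIs at 24.5 CPM (20.9 to 28.7), at a log2 ratio of 0.69 (0.30 to 1.08). Gamma-delta T cells, gated by *Trdc*, held 8 and 22 UMIs, and regulatory T cells 4 and 1. Cells of no class held 160 and 460 UMIs. *Serbp1*, which overlaps *Il12rb2* on the opposite strand, was at 614 and 638 CPM in NK cells.

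*Il12rb1* (ENSMUSG00000000791, mm10 chromosome 8, 70808449 to 70821424, forward strand), the chain shared by the IL-12 and IL-23 receptors, was in T cells at 23.2 CPM (20.3 to 26.3) and 20.7 CPM (18.4 to 23.2). Its log2 ratio was −0.13 (−0.34 to 0.07), 0.02 (−0.19 to 0.22) after median-of-ratios scaling and −0.53 (−0.99 to −0.04) in Y-positive cells, on 32 and 181 UMIs. In NK cells it was at 0.52 (−0.10 to 1.15) on 21 and 55 UMIs. It was higher in Kupffer cells, from 17 UMIs at 1.40 CPM (0.814 to 2.24) to 200 UMIs at 8.27 CPM (7.16 to 9.50), at a log2 ratio of 1.05 (0.83 to 1.24), and in other macrophages, from 2.89 to 13.5 CPM, 1.23 (0.97 to 1.49). The thinned shares were 1.38% and 1.15% with anti–PD-1, beside 0.197% in tumor cells and BECs, whose own *Il12rb1* went from 3 to 12 UMIs.

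**Figure D5:**
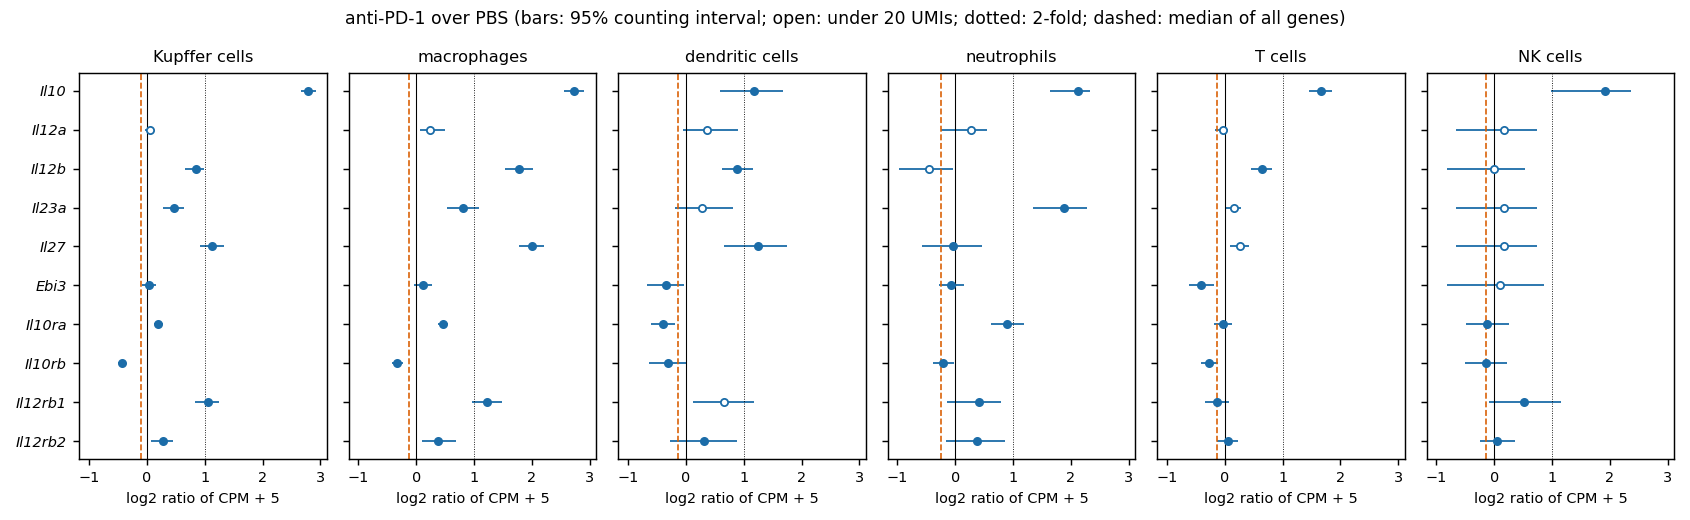
Log2 ratio of CPM + 5, anti–PD-1 over PBS, of the 10 genes in 6 cell classes, with 95% counting intervals as bars. Open points had under 20 UMIs in both libraries together, the dotted line marks a 2-fold higher level and the dashed line the median of all genes measured in the class. *Il10* was past the dotted line in all 6 classes, and *Il10ra*, *Il10rb* and *Ebi3* in none.

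Members were counted against all genes with at least 20 UMIs over both libraries of a class, by the log2 ratio of CPM + 5. In monocytes/macrophages 3 of 9 members so measured (*Il10*, *Il12b* and *Il27*) were at least 2-fold higher with anti–PD-1, where 1.93% of 15377 genes were, and 0 were at least 2-fold lower, where 0.501% of genes were. In Kupffer cells 3 of 9 (*Il10*, *Il12rb1* and *Il27*) were higher beside 1.82% of genes, and 0 were lower beside 0.237%. In other macrophages 4 of 9 (these and *Il12b*) were higher beside 2.6%, and 0 were lower beside 0.62%. In DCs 2 of 7 (*Il10* and *Il27*) were higher beside 2.2% of genes, and 0 were lower beside 2.55%. Of the 22 *Il27* UMIs in anti–PD-1 DCs 13 came from 1 cell, without which the level was 4.41 CPM in place of 10.8 CPM. In neutrophils 2 of 8 (*Il10* and *Il23a*) were higher beside 2.27%, and 0 were lower beside 4.25%. *Il10* alone was higher in T cells (1 of 7, beside 1.15%), in NK cells (1 of 5, beside 3.02%) and in B cells (1 of 6, beside 1.81%), and 0 were lower beside 0.641%, 3.56% and 1.97%. Several of these members had under 20 UMIs with PBS and reached the minimum through anti–PD-1, which favours a higher value: *Il10* in neutrophils (0 UMIs), NK cells (0), B cells (4) and DCs (4), *Il27* in DCs (5), *Il23a* in neutrophils (5) and *Il12rb1* in Kupffer cells (17). So did some within 2-fold by the log2 ratio of CPM + 5, though not always by CPM: *Il12b* in T cells (0), *Il12b* (3), *Il23a* (7) and *Il12rb2* (11) in Kupffer cells, and *Il23a* in other macrophages (15). The same held for *Il12rb1* (3), *Il12rb2* (12) and *Il27* (13) in neutrophils, and for *Il12rb2* in B cells (2). The counts therefore describe the members that passed the minimum, and nothing is read from them in any class.

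The IL-10 and STAT3 response genes, a list of 10, were higher in part in macrophages, and not in these alone. In Kupffer cells 5 of 10 were at least 2-fold higher and 10 of 10 above 0, where 1.82% of all genes were past 2-fold in that direction, and the median log2 ratio was 0.80 against −0.10 over all genes. *Nfil3*, a transcription factor that IL-10 induces in macrophages, went from 17.3 to 163 CPM (log2 ratio 2.92), *Zfp36*, which speeds the decay of cytokine mRNAs, from 682 to 1952 CPM (1.51), and *Il4ra*, the IL-4 receptor chain, was lowest at 0.02. The other 3 past 2-fold, named after their values were seen, were *Socs3*, the feedback inhibitor of STAT3 signaling (1.83), *Il1rn*, the IL-1 receptor antagonist (1.27), and *Tnip3* (1.03). In other macrophages 4 of 10 were past 2-fold beside 2.6% of all genes, with a median of 0.78 against −0.12. *Nfil3* was also past 2-fold in T cells (2.71) and in B cells (2.61). In T cells 1 of 10 of the list was past 2-fold beside 1.15% of all genes (median 0.41 against −0.13), and in B cells 1 of 10 beside 1.81% (median −0.01 against −0.13). In NK cells 3 of 9 measured were past 2-fold beside 3.02% (median 0.54 against −0.15). One of these, *Il1rn*, had 0 UMIs with PBS and 22 with anti–PD-1. *Nfil3* in B cells had 7 and 225. Both reached the minimum of 20 UMIs through anti–PD-1, which favours a higher value, and nothing is read from the counts of this list in NK cells and B cells. The median was 0.81 in tumor cells and BECs, against −0.05 over all genes, and 0.92 in mature DCs, against −0.07, as high as in macrophages. *Zfp36* is itself an early response gene, and the dissociation stress list had 9 of 14 genes past 2-fold in Kupffer cells, with a median of 1.27.

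The known inducers of the cytokine genes differed one by one in Kupffer cells. Of 10 inducers of the *Il12* and *Il23* genes, 3 were at least 2-fold higher beside 1.82% of all genes, with a median of 0.29 against −0.10. *Irf1*, an interferon-induced factor needed for *Il12* induction, went from 96.2 to 395 CPM (1.98), and *Rel* and *Cd40*, named after their values were seen, were both at 1.11, while the endotoxin receptor *Tlr4* was at −0.40. Of 8 inducers of *Il10* (median 0.22), 1 was past 2-fold beside the same 1.82%, *Cebpb*, from 707 to 1661 CPM (1.23), and *Maf*, a factor that binds the *Il10* locus in macrophages and T cells, was at −0.50. Of 12 other receptors and ligands of the family, 4 were measured in Kupffer cells and 0 passed 2-fold, with *Il27ra* at 0.17 and *Il6st*, the shared chain of the IL-27 and IL-6 receptors, at −0.09.

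The IL-12 and STAT4 response genes were higher in part in T cells. There 4 of 10 were past 2-fold beside 1.15% of all genes, with a median of 0.25 against −0.13: *Ifng*, the gene of interferon-γ, from 84.3 to 207 CPM (1.25), the chemokine gene *Ccl4* from 215 to 469 CPM (1.11), and, named after their values were seen, the granzyme gene *Gzmb* (1.19) and *Ccl3* (1.02). The stress-inducible *Gadd45g* was at −0.70. Within CD8 T cells 1 of 10 was past 2-fold beside 1.58% of all genes, *Ifng* at 2.36, and 0 were lower beside 1.04%. The median was 0.43 against −0.09. Within CD4 T cells 2 of 9 were higher beside 1.93% and 1 was lower beside 1.59%, with a median of −0.02 against −0.14 and *Ifng* at −0.02. CD8 T cells were 864 of 3060 T cells with PBS and 1231 of 3191 with anti–PD-1, and the part of this makeup in the values of T cells together was not tested. In NK cells *Ifng* went from 201 to 444 CPM (1.12) and was 1 of 9 past 2-fold, beside 3.02% of all genes. *Stat4*, the STAT of IL-12 and also named after its values were seen, was at 0.20 in T cells and at 0.07 in NK cells. In Kupffer cells 2 of 10 of the list were past 2-fold beside 1.82%, *Ccl4* from 333 to 1245 CPM (1.88) and, named after its values were seen, *Gzmb* (1.27). Of the other receptors measured in T cells, *Il23r*, the IL-23 receptor chain, went from 12.7 to 3.77 CPM (−1.01) and was 1 of 6 past 2-fold, in the lower direction, where 0.641% of all genes were. Stress genes past 2-fold were 6 of 14 in T cells (median 0.66) and 7 of 14 in NK cells (median 0.90).

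The genes whose levels were most like those of *Il10* and *Il12b* were taken by Pearson correlation of log2(CPM + 5) over 27 class sums, which are classes with at least 100 cells in a library, over 13839 genes. For *Il10* they were *Got1* (0.79), *Gbp2b* (0.76), *Rilpl2* (0.71), *Ifi27l2a* (0.70) and *Zbp1* (0.69). For *Il12b* they were *Xcr1* (0.76), *Gm43914* (0.73), *Nrg2* (0.72), *Ppt1* (0.72) and *Clec9a* (0.72), with mature DCs left out because they had under 100 cells. The sums share their libraries and differ in depth, and these values describe likeness only.

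Cells with *Il10* were compared with the rest for *Il12b*, which few macrophages held, and for *Il27*. Of 862 anti–PD-1 Kupffer cells with *Il10*, 12 (1.39%) also had *Il12b*, against 1.47% of the rest, and 169 (19.6%) had *Il27*, against 12.9% of the rest. In other macrophages 7 of 129 cells with *Il10* (5.43%) had *Il12b*, against 1.67% of the rest, and 20 (15.5%) had *Il27*, against 13.7%. Cells with *Il10* were deeper in both classes, with medians of 11285 against 8658.5 UMIs in Kupffer cells and 8130 against 5292.5 in other macrophages. In the PBS library 0 of 345 cells with *Il10* had *Il12b*.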

How the data were processed

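Both shYT libraries were compared, 1 per group, with groups taken from the sample labels. The deposited values are unnormalized counts of UMIs for each gene in each barcode, which the authors made with Singleron's software by alignment to mm10. The software version, the annotation and the use of strand are not given in the sources used here, and the submitters' processing notes also name Seurat 4.3. Of 32589 gene identifiers, 32445 (99.6%) were found in GENCODE vM21, which gave the coordinates.

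UMIs were summed per library and marker-gated class, with scripts in Python 3.11.15, numpy 2.4.6, scipy 1.17.1, pandas 2.3.3 and scanpy 1.11.5. Kupffer cells were sub-gated by at least 2 markers, as were classical monocytes with under 2 macrophage markers. All other cells of the monocyte/macrophage gate were called macrophages. T cell subsets were sub-gated by UMIs of *Cd8a* or *Cd8b1*, *Foxp3*, *Cd4* and *Trdc*. T cells with both CD4 and CD8 markers but no *Foxp3* were put in no subset. Intervals are exact Poisson (levels, folds) and Clopper-Pearson (shares). Scripts were tested on simulated data. Results on the JAK-STAT list as a whole are not reported here. All 10 members are named, and of each list the genes with the largest and smallest log2 ratio and with most UMIs in the class described, among genes with at least 20 UMIs (likeness: 200). Members, lists and markers were chosen with earlier results of these data known. Doublets were kept, since the automatic threshold of a doublet score marked 0 cells, and the 5% of cells with the highest scores were left out in an alternative. Other alternatives changed the pseudocount, scaling, cell filters, gate, classes, depth and sex-linked composition.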

Additional observations from a re-analysis of the deposited data

Results flagged for a closer look

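The direction differed between cell classes for 3 genes, and these differences were not tested, since each group had 1 library. *Il10ra* had a log2 ratio of 0.90 in neutrophils and −1.37 in plasmacytoid DCs, 2.26 apart, the latter on 35 and 9 UMIs. *Il10rb* was at 0.57 in tumor cells and BECs and at −0.34 in B cells, 0.91 apart. *Ebi3* was at 0.50 (0.00 to 1.01) in tumor cells and BECs, on 21 and 17 UMIs, and at −0.40 in T cells, also 0.91 apart. The lower value in T cells was not seen in Y-positive T cells, which had *Ebi3* at 15.0 CPM with PBS and 16.0 CPM with anti–PD-1.

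Signal also lay outside the named classes and outside the cell filters. In cells of no class *Il10* was at 51.04 CPM with anti–PD-1, against 4.75 CPM with PBS. In the 3866 PBS and 3091 anti–PD-1 barcodes outside the filters, *Il10* was at 39.3 CPM, *Il10ra* at 37.4 CPM and *Il12rb1* at 6.83 CPM with anti–PD-1, against 2.21, 16.0 and 0.704 CPM with PBS. A check for samples far from the others of their group could not be made with 1 library per group.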

How the results depend on the processing

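No paired analysis was possible because each group had 1 library. Of 163 alternative values of 13 results, 33 moved beyond the counting interval and no value past 2-fold changed sign. Among values whose interval included 0, *Il12rb1* in T cells changed sign from −0.13 to 0.02 with median-of-ratios scaling, *Il12rb2* in T cells from 0.05 to −0.16 in Y-positive cells, to −0.09 after thinning and to −0.01 with classes from clusters, and *Il12rb2* in NK cells from 0.05 to −0.02 after thinning. The alternatives by subclass (Kupffer cells, those with a *Clec4f* UMI, other macrophages, mature DCs), without the top cell and without shared barcodes were chosen after seeing the data. All values here are log2 ratios. With a pseudocount of 1 CPM, *Il10* in monocytes/macrophages moved from 3.50 to 3.77, *Il10* in T cells from 1.66 to 1.92, *Il27* in monocytes/macrophages from 1.50 to 1.98, and *Il12a* and *Il23a* in DCs from 0.37 to 1.31 and from 0.28 to 0.89. Median-of-ratios scaling, whose shift was −0.15 in monocytes/macrophages, −0.11 in DCs, −0.18 in T cells and −0.17 in NK cells, moved *Il10* to 3.65, *Il10ra* to 0.31 and *Il10rb* to −0.14 in monocytes/macrophages. In Y-positive cells, *Il10* was at 3.69 and *Il10rb* at −0.36 in monocytes/macrophages, *Il12b* at 0.27 in DCs, *Il10* at 3.19, *Il12rb1* at −0.53 and *Il12rb2* at −0.16 in T cells, and *Il12rb2* at 0.59 in NK cells on 12 and 124 UMIs. Thinning to 1000 UMIs gave −0.22 for *Il10rb* in monocytes/macrophages and 1.33 for *Il10* in T cells. Classes from clusters gave 0.11 for *Il10ra* in monocytes/macrophages and 0.28 for *Il12b* in DCs, the looser gate 0.47 for *Il12b* in DCs, and leaving out the top cell of each library 1.24. In Kupffer cells *Il10*, *Il10rb* and *Il27* were at 2.79, −0.42 and 1.12, in Kupffer cells with *Clec4f* at 2.91, −0.42 and 1.12, and in other macrophages *Il10*, *Il10ra* and *Il27* at 2.72, 0.47 and 2.00. In mature DCs *Il12a*, *Il12b* and *Il23a* were at 1.63, 0.13 and 1.27. The cause of these moves was not tested, except that subclasses and the pseudocount change the values by construction. The number of genes at least 2-fold higher in monocytes/macrophages was 297, and 375 with median-of-ratios scaling.

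With 1 library per group the intervals hold counting error alone, and differences between animals, preparations, depth, sex-linked composition and dissociation cannot be told apart from treatment. Below about 20 UMIs a ratio was not resolved at this depth, which holds for *Il12a* and *Il23a* in DCs. Class gates left 16.7% of PBS and 21.9% of anti–PD-1 cells in no class.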
